A study of Mus musculus with 16 samples.

Results

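The genes described here are 36 genes of the unfolded protein response and of protein folding in the endoplasmic reticulum (ER), chosen by name: stress sensors and their transcription factors, ER chaperones, folding enzymes, ER-associated degradation factors, translocon subunits and outputs of the ATF4 arm. Of these, 35 had an entry among the 41740 genes counted in every library, and all 35 passed the filter on low counts, as did 15267 genes in all. Ddit3, the gene for the transcription factor CHOP, was not analysed here. The libraries were made from total RNA of the ileal whole wall of male mice that were 20 weeks old. All 3 groups were STAM mice, which get streptozotocin, a toxin of beta cells, on day 2 of life and fat-rich chow from week 4, and which develop diabetes and steatohepatitis. Control-STAM-nonINS mice (n = 4) had the genotype Vilin-Cre(-); InsR-flox and no insulin. Control-STAM-INS mice (n = 6) had the same genotype and received long-acting insulin from 6 weeks of age, 2 injections per day, at up to 12 U/kg. The mice labelled ieIRKO-STAM-INS (n = 6) had the genotype Vilin-Cre(+); InsR-flox, meant to remove the insulin receptor from the intestinal epithelium, and the same insulin. No ieIRKO library without insulin was analysed here.

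The ER folds and glycosylates proteins bound for the membrane and for secretion, and the gut epithelium holds cell types, such as Paneth and goblet cells, that are known for a heavy secretory load. When unfolded proteins build up, the sensors IRE1 (Ern1, and its epithelial form Ern2), PERK (Eif2ak3) and ATF6 are known to respond. IRE1 splices the Xbp1 transcript, and spliced XBP1 and cleaved ATF6 raise genes for chaperones, disulphide isomerases and degradation of misfolded proteins. PERK slows translation and raises ATF4, whose outputs include amino acid genes and Ppp1r15a, which restores translation. Much of this signalling takes place by splicing, cleavage and phosphorylation, which gene counts do not show.

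Between 13288018 and 22215382 reads were counted per library, and the totals did not differ between groups beyond their spread (exact two-sided permutation tests, p = 0.962 for the insulin-treated against the untreated controls, p = 0.364 for the labelled knockouts against the insulin-treated controls). Levels are given as CPM, counts brought to equal library sizes with TMM factors, and tests are from edgeR's quasi-likelihood fit of all 3 groups, with p-values adjusted over the 15267 tested genes. The targeted gene, Insr, was not lower in the labelled knockouts by its whole-gene count, with 57.5 to 90.5 CPM in ieIRKO-STAM-INS and 49.9 to 76.1 CPM in Control-STAM-INS and a log2 fold change of 0.10 ± 0.13 (SE, adjusted p = 0.805) that was -0.0026 without ieIRKO-STAM-INS replicate 4. Insr was at 88.3 to 116 CPM in Control-STAM-nonINS, and was lower than this in Control-STAM-INS without overlap (-0.75 ± 0.14, adjusted p = 0.00275). Villin-Cre acts in the epithelium alone, whereas the whole wall also holds muscle, immune and stromal cells, and a count over the whole gene need not register a deleted exon. The part of either in the Insr values was not tested. Markers of the ileal epithelium were present in all groups, with 8 enterocyte genes summing to 8678 to 32800 CPM. In such bulk samples, fewer cells of a type and less RNA per cell cannot be told apart. The ieIRKO-STAM-INS replicates 2 and 3 stood apart by high B cell markers, and the counts of genes called among the 35 are also given without them. Whole libraries of a group were also compared in pairs, by the chi-square of their counts per degree of freedom. This was 69.7 to 79.8 between Control-STAM-nonINS replicate 4 and the other untreated libraries, and 17.2 to 35.4 among those others. For ieIRKO-STAM-INS replicate 5 it was 44.9 to 119, and 20.3 to 58.2 among the rest of that group.

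The sequences that carry the unfolded protein response in promoters were searched first, in the 250 bases before each gene's RefSeq start (GRCm38.p6), on both strands. The ER stress response element (ERSE) has the letters CCAAT, a box known to bind NF-Y, then a gap of any 9 bases, then CCACG, known to bind ATF6 and XBP1. It was originally described in promoters of ER chaperones, so that having it is not independent of being on the list. A promoter was found for 29 of the 35 genes, and 9 of these (31.0%) held an exact ERSE, against 17 of 11702 tested genes with a promoter (0.145%) and 35 of 27025 genes in all (0.13%). The 9 were Calr, Canx, Creld2, Derl3, Dnajc3, Hsp90b1, Hspa5, Pdia6 and Syvn1. In the last 150 bases before the start the number was 7. The sites of 6 of these genes are shown because they had the smallest p-values of the 9 in any comparison, each read from the CCAAT to the CCACG end, with the fixed letters of the motif in capitals and 5 bases on either side.
Syvn1, chr19:6046527-6046555, plus strand: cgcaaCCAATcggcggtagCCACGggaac
Canx, chr11:50325795-50325823, minus strand: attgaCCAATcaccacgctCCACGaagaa
Hsp90b1, distal site, chr10:86705633-86705661, minus strand: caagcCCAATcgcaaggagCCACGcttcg
Hsp90b1, proximal site, chr10:86705528-86705556, plus strand: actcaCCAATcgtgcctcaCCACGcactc
Calr, chr8:84847070-84847098, plus strand: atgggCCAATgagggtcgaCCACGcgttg
Hspa5, chr2:34772020-34772048, plus strand: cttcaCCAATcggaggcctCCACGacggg
Derl3, chr10:75893237-75893265, minus strand: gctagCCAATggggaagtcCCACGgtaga
The element began 44 bases before the start of Syvn1, 65 bases before that of Hspa5 and 145 bases before that of Canx, in the direction of the gene in all 3. In Calr and Derl3, and at the proximal site of Hsp90b1, it ran against the gene. The whole windows of Syvn1 and Canx, in which no exon is annotated, show the sites in their setting.
Syvn1, chr19:6046326-6046575, plus strand: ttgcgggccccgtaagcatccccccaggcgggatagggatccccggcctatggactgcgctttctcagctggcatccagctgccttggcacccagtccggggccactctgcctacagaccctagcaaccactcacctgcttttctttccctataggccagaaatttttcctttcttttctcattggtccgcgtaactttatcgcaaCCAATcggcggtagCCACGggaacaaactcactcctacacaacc
Canx, chr11:50325674-50325923, minus strand: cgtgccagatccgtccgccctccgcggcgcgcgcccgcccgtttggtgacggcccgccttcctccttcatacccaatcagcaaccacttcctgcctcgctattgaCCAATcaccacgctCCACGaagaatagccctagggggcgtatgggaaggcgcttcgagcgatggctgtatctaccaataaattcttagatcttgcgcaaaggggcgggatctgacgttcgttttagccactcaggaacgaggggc

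Insulin treatment of control STAM mice went with higher levels of the ER chaperones, folding enzymes and part of the degradation machinery. In Control-STAM-INS against Control-STAM-nonINS, 17 of the 35 genes were higher at an adjusted p under 0.05 (48.6%), where 3.73% of all tested genes were, and 1 was lower (2.86%), where 6.76% of all tested genes were. The list was chosen with earlier results of these data known, so these shares are descriptive. The median log2 fold change was 0.37 over the 35 genes and -0.00 over all tested genes. In 17 of the 35, every insulin-treated library lay above every untreated library, as in 4.4% of all tested genes. By role, the higher genes were 7 of 8 Hsp70 and Hsp90 chaperones and cofactors, 5 of 7 disulphide isomerases and lectin chaperones, 4 of 8 degradation factors, 1 of 3 translocon subunits, 0 of 6 sensors and transcription factors, and 0 of 3 ATF4 outputs. The count depended on the untreated libraries: without Control-STAM-nonINS replicate 1 it was 7 genes, and without replicate 4 it was 8, in place of 18 in both directions. Without ieIRKO-STAM-INS replicates 2 and 3, which enter the shared estimate of spread, it was 15. Calls over all tested genes fell in the same fits. They were 1602 with every library, 824 without Control-STAM-nonINS replicate 1 and 1150 without replicate 4. Without ieIRKO-STAM-INS replicates 2 and 3 they were 1524.

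**Figure D1:**
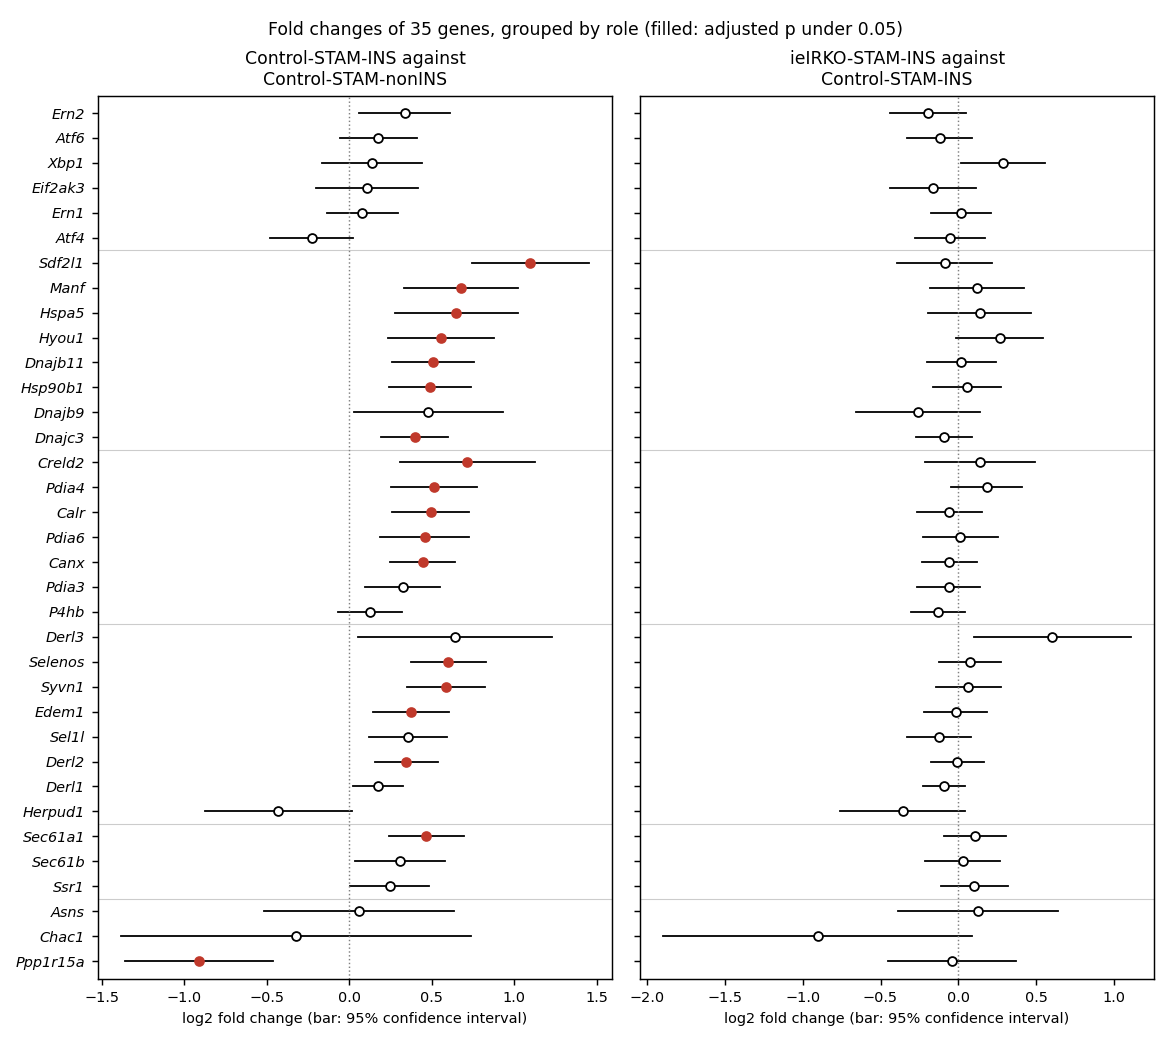
Log2 fold change of each of the 35 genes, grouped by role (top to bottom: sensors and transcription factors, Hsp70 and Hsp90 chaperones and cofactors, disulphide isomerases and lectin chaperones, degradation factors, translocon, ATF4 outputs), with its 95% confidence interval as a bar, and a filled point where the adjusted p was under 0.05. Left, Control-STAM-INS against Control-STAM-nonINS, with 17 filled points to the right of 0 and Ppp1r15a to the left. Right, ieIRKO-STAM-INS relative to Control-STAM-INS, with none filled.

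Sdf2l1, a soluble partner of the ER Hsp40 cochaperones, differed most among the 35 genes. It was at 19.8, 29.7, 26.3 and 22.4 CPM in the 4 Control-STAM-nonINS libraries and between 41.3 and 73.5 CPM, with a median of 50.4, in Control-STAM-INS. The groups did not overlap, and the level was 2.14-fold higher (log2 fold change 1.1 ± 0.18, SE, adjusted p = 0.00136). Hspa5 encodes BiP, the ER Hsp70 that binds unfolded chains and holds the 3 sensors inactive. Its level was 378, 419, 504 and 362 CPM without insulin and 573 to 724 CPM, median 648, with insulin. All 6 insulin-treated libraries were above all untreated libraries, with a log2 fold change of 0.65 ± 0.19 and an adjusted p of 0.0374. The call of Hspa5 did not hold in 8 of the 23 alternative fits, among them those without Control-STAM-nonINS replicate 1, 2 or 4 or without Control-STAM-INS replicate 2, 3, 4 or 6, in which the adjusted p was at most 0.115.

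Manf, a secreted ER-resident trophic factor that binds BiP, was at 87.1, 79.3, 94.8 and 78.3 CPM without insulin and at 109 to 168 CPM, median 133, with insulin. Hsp90b1, the ER Hsp90 known as GRP94, was at 585, 676, 646 and 472 CPM without insulin and at 707 to 1019 CPM, median 808, with insulin. Neither gene's groups overlapped. The log2 fold changes were 0.68 ± 0.18 for Manf (adjusted p = 0.0209) and 0.49 ± 0.13 for Hsp90b1 (adjusted p = 0.0197), and neither call held without Control-STAM-nonINS replicate 1 or replicate 4, at adjusted p-values of 0.0574 to 0.0617. Exons of Manf overlap those of Rbm15b on the same strand, and those of Hsp90b1 overlap Gm15344 and Gm25745, so part of both counts is uncertain. Hyou1, a large Hsp70-like exchange factor of BiP, was at 92.8, 98.1, 103 and 87.7 CPM without insulin and at 115 to 161 CPM, median 141, with insulin (log2 fold change 0.56 ± 0.16, adjusted p = 0.0366). Dnajb11, an ER Hsp40 cochaperone of BiP, was at 120, 124, 116 and 83.3 CPM without insulin and at 135 to 177 CPM, median 157, with insulin (0.51 ± 0.13, adjusted p = 0.0167). In both genes all insulin-treated libraries were higher. The call of Hyou1 was lost in 9 of 23 alternatives, 8 of them with 1 library left out (any untreated library, or Control-STAM-INS replicate 3, 4, 5 or 6), with an adjusted p of at most 0.0997, and that of Dnajb11 only without Control-STAM-nonINS replicate 4 (adjusted p = 0.0533). Dnajc3, known as p58IPK, also rose (0.40 ± 0.10, adjusted p = 0.0206), though not without Control-STAM-nonINS replicate 1 (adjusted p = 0.0593) or 4 (adjusted p = 0.0678). Dnajb9, which binds BiP and IRE1, was the 1 member of this group that did not pass, at 0.48 ± 0.23 (adjusted p = 0.207), with overlapping groups.

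**Figure D2:**
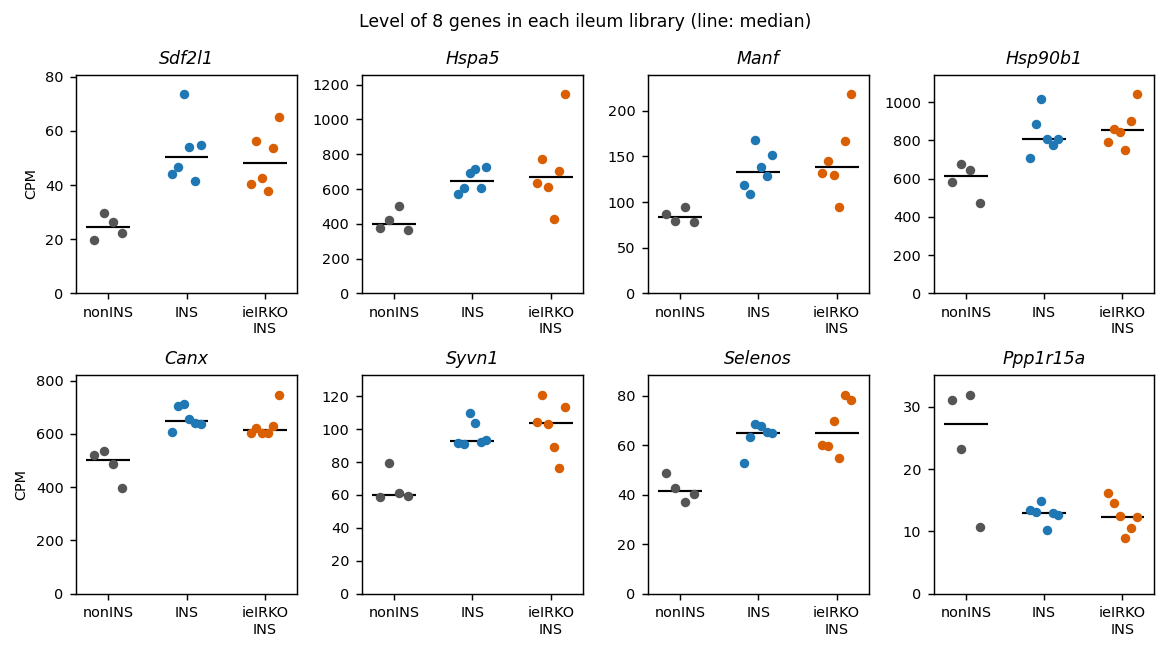
Level in CPM of 8 of the genes in each of the 16 libraries, a point per library and a line at the group median, on axes that start at 0. In the 7 genes other than Ppp1r15a the insulin-treated controls lie above the untreated ones. In these genes the ieIRKO-STAM-INS libraries overlap the range of Control-STAM-INS and reach beyond it at the top, the bottom or both. The highest BiP (Hspa5) level among them is 1144 CPM.

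Among the folding enzymes and lectin chaperones, the 2 ER lectins that hold newly glycosylated proteins rose. Calr, calreticulin, was at 628, 694, 699 and 475 CPM without insulin and at 707 to 1007 CPM, median 902, with insulin. Canx, its membrane-bound relative calnexin, was at 521, 538, 486 and 398 CPM without insulin and at 607 to 713 CPM, median 651, with insulin. Both genes had their lowest level of all in Control-STAM-nonINS replicate 4, and in neither did the groups overlap. The log2 fold change was 0.49 ± 0.12 for Calr (adjusted p = 0.014) and 0.44 ± 0.10 for Canx (adjusted p = 0.00942). Pdia4, the disulphide isomerase ERp72, was at 79.1, 83.5, 97.9 and 71.7 CPM without insulin and at 104 to 155 CPM, median 114, with insulin, again without overlap (0.51 ± 0.13, adjusted p = 0.0201), though the call did not hold without Control-STAM-nonINS replicate 1 (adjusted p = 0.0676) or 4 (adjusted p = 0.0653). Creld2, a target of ATF6 with isomerase activity, changed by 0.72 ± 0.21 (adjusted p = 0.0373), and Pdia6, another isomerase, by 0.46 ± 0.14 (adjusted p = 0.0419). The calls of these 2 genes were the less firm, lost in 7 and 11 of 23 alternatives. That of Creld2 was lost without Control-STAM-nonINS replicate 1 or 4 or Control-STAM-INS replicate 3, 4 or 6 (adjusted p at most 0.12), and that of Pdia6 without any 1 of 9 libraries, among them Control-STAM-nonINS replicates 1, 3 and 4 and Control-STAM-INS replicates 2 to 6 (adjusted p at most 0.129). Pdia3, the isomerase that works with the lectins (0.32 ± 0.12, adjusted p = 0.0831), and P4hb, the classical disulphide isomerase (0.13 ± 0.10, adjusted p = 0.462), did not pass the test. P4hb was the most abundant of the 35 genes per length, at a median of 359.5 CPM per kb of exon without insulin, followed by Calr at 229.5 and Pdia3 at 196, whereas Chac1 and Derl3 were the least abundant at 2.70 each.

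Of the degradation factors, 4 of 8 were higher, among them the ubiquitin ligase at the core of the pathway. Syvn1, which encodes the ubiquitin ligase HRD1, was at 58.8, 79.6, 61.1 and 59.2 CPM without insulin and at 90.9 to 110 CPM, median 92.7, with insulin. Selenos, the selenoprotein that links the complex to the p97 ATPase, was at 48.7, 42.6, 36.9 and 40.1 CPM without insulin and at 52.7 to 68.7 CPM, median 65.1, with insulin. The groups were apart in both, with log2 fold changes of 0.58 ± 0.12 for Syvn1 (adjusted p = 0.00535) and 0.60 ± 0.12 for Selenos (adjusted p = 0.00361), and both calls held in all 23 alternatives. Sel1l, the partner of HRD1, was also higher in every insulin-treated library but missed the threshold (0.35 ± 0.12, adjusted p = 0.0664), which it passed under 6 of 23 alternatives. Derl2, a membrane rhomboid-like factor (0.35 ± 0.10, adjusted p = 0.0313), and Edem1, a mannosidase-like factor that selects glycoproteins for degradation (0.37 ± 0.12, adjusted p = 0.0475), rose, but the call of Edem1 was lost in 14 of 23 alternatives, 11 of them with 1 library left out (adjusted p at most 0.146). That of Derl2 was lost in 5, among them those without Control-STAM-nonINS replicate 1 or 4 or Control-STAM-INS replicate 5 or 6 (adjusted p at most 0.122). Exons of Syvn1 and of Derl2 overlap those of a neighbour on the other strand (Mrpl49 and Mis12), and the strand setting of the counting is not given in the sources used here. The same limit holds for Pdia6 (Atp6v1c2), Sec61a1 (Gm44170) and Ppp1r15a (Tulp2), and Pdia4 overlaps Mir704 on its own strand. Derl1 (0.17 ± 0.08, adjusted p = 0.17) and Derl3 (0.64 ± 0.30, adjusted p = 0.19) were not called, though Derl3 was called without Control-STAM-nonINS replicate 4 (adjusted p = 0.0421).

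Herpud1, an ER membrane ubiquitin-like protein and a classical early target of the response, had the opposite sign to the other degradation factors. It was at 271, 169, 177 and 181 CPM without insulin and at 104 to 211 CPM, median 145, with insulin, with a log2 fold change of -0.43 ± 0.23 (adjusted p = 0.25). In the translocon, Sec61a1, the channel subunit through which chains enter the ER, was at 218, 181, 188 and 188 CPM without insulin and at 240 to 306 CPM, median 265, with insulin, without overlap (0.46 ± 0.12, adjusted p = 0.0164). Sec61b (0.31 ± 0.14, adjusted p = 0.174) and Ssr1 (0.24 ± 0.12, adjusted p = 0.222), a channel subunit and a translocon-associated protein, did not pass. Sdf2l1, Selenos, Syvn1, Canx, Calr and Sec61a1 were the genes whose calls held in all 23 alternatives.

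The sensors and transcription factors that stand upstream did not pass the test at the level of their transcripts, 0 of 6 in edgeR and 0 of 6 in DESeq2, with 1 at an unadjusted p under 0.05. Xbp1 was at 198, 192, 196 and 198 CPM without insulin and at 172 to 250 CPM, median 219, with insulin, with 5 insulin-treated libraries above and 1 below all untreated ones (log2 fold change 0.14 ± 0.15, 95% confidence interval -0.16 to 0.44, adjusted p = 0.628). Ern1 was at 37.4, 38.0, 30.9 and 41.6 CPM without insulin and at 31.0 to 43.6 CPM with insulin (0.08 ± 0.11, interval -0.13 to 0.29, adjusted p = 0.704). Ern2, the form of IRE1 found in mucosal epithelia, was at 12.2, 12, 8.67 and 12.6 CPM without insulin and at 12.6 to 16.4 CPM with insulin, where 5 of 6 libraries were above all untreated ones (0.33 ± 0.14, interval 0.06 to 0.61, adjusted p = 0.136). Atf6 (0.18 ± 0.12) and Eif2ak3 (0.11 ± 0.16) were not called either. Atf4 was at 245, 268, 197 and 179 CPM without insulin and at 169 to 213 CPM, median 188, with insulin, a log2 fold change of -0.23 ± 0.13 (interval -0.48 to 0.02, adjusted p = 0.275). Counts over whole genes do not separate spliced from unspliced Xbp1.

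Of the 3 outputs of ATF4, 1 was lower with insulin, where 6.76% of all tested genes were, and the other 2 did not pass the test. Ppp1r15a, which encodes GADD34, the phosphatase subunit that reverses the translation block, was at 31.1, 23.3, 31.9 and 10.7 CPM without insulin and at 10.2 to 14.9 CPM, median 13, with insulin. The untreated replicate 4 lay within the range of the insulin-treated libraries, and the other 3 lay above it. The level was 0.532-fold that without insulin (log2 fold change -0.91 ± 0.23, adjusted p = 0.0177), and the call was lost without Control-STAM-nonINS replicate 1 (adjusted p = 0.0774) or replicate 3 (adjusted p = 0.0718). Chac1, which degrades glutathione, ranged from 0.875 to 9.58 CPM among the untreated libraries, with at least 20 reads, and had a log2 fold change of -0.32 ± 0.54. Asns, asparagine synthetase, had 0.06 ± 0.29.

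**Figure D3:**
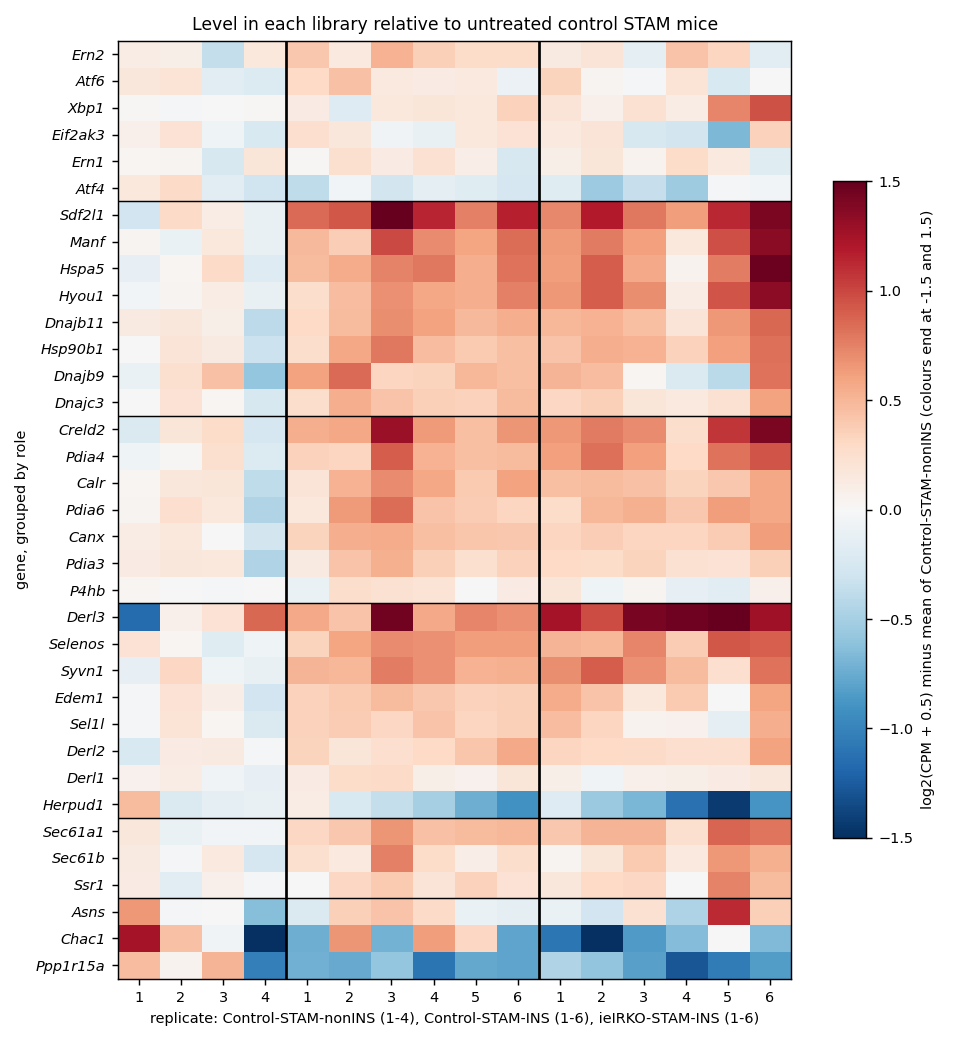
Log2(CPM + 0.5) of the 35 genes in each library minus the mean of the Control-STAM-nonINS libraries, genes from top to bottom grouped by role and libraries from left to right, with red for higher and blue for lower levels and colours that end at -1.5 and 1.5. Most chaperone and folding genes are red in the insulin-treated controls and in the ieIRKO-STAM-INS libraries. In these libraries Ppp1r15a is blue, and Herpud1 is blue in most of them.

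The libraries within a group moved together over the 17 genes that were higher. Control-STAM-INS replicate 3 was the highest of its group in 13 of the 17 genes and replicate 1 the lowest in 10. In Control-STAM-nonINS, replicate 4 was the lowest in 12. In ieIRKO-STAM-INS, replicate 6 was the highest in 13 and replicate 4 the lowest in 14. The 17 genes are therefore not independent of each other.

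The exact ERSE was found in 8 of the 14 higher genes that had a promoter and in 1 (Derl3) of the 15 others. The 9 genes with an ERSE had a median log2 fold change of 0.49 with insulin. The other 8 tested genes with an ERSE in their promoter, which are not on the list, had a median of 0.05. Of these 8, Alg12, a mannosyltransferase of N-glycan assembly, was higher (0.46 ± 0.14, adjusted p = 0.0474) and Acacb, an acetyl-CoA carboxylase, was lower (-1.08 ± 0.25, adjusted p = 0.0102), both named after their values were seen. The compact element ERSE-II, with the letters ATTGG and CCACG set 1 base apart, occurred in Herpud1 alone among the 29 promoters and in 7 of 11702 tested genes. The C/EBP-ATF response element (CARE, TGATGNAA), known to bind ATF4, occurred in Asns, Chac1 and Herpud1 (10.3%), and in 2.44% of tested genes, and none of the 14 higher genes held it. The core of the XBP1 element UPRE, TGACGTGG, was in 0 of 29 promoters and in 0.923% of tested genes. A CCAAT box, CCAAT, which overlaps the ERSE, was present in all 14 higher genes with a promoter and in 9 of the 15 others, where 39.9% of tested genes had it.

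The genotype comparison asks whether the epithelial receptor matters under insulin, and in it no gene of the 35 passed the test. Of the 35 genes in ieIRKO-STAM-INS relative to Control-STAM-INS, 0 were called by edgeR or by DESeq2, where edgeR called 0.223% of all tested genes, and the count was also 0 without ieIRKO-STAM-INS replicates 2 and 3. At an unadjusted p under 0.05, 1 of 35 passed, where 11.3% of all tested genes did. The log2 fold changes ran from -0.90 to 0.60 with a median of -0.01, and in none of the 35 were the groups apart, where 0.439% of all tested genes had every ieIRKO-STAM-INS library above and 0.406% below. For the leading genes of the insulin comparison, intervals from the normal quantile are given, which are somewhat narrower than the F test implies. Sdf2l1 was at 37.8 to 65.3 CPM, median 48.0, in ieIRKO-STAM-INS, with a log2 fold change of -0.09 (95% confidence interval -0.39 to 0.22, adjusted p = 0.86). Hspa5 ranged more widely than in Control-STAM-INS, from 429 CPM in replicate 4 to 1144 CPM in replicate 6, median 670, with 0.14 (interval -0.19 to 0.47, adjusted p = 0.802), which was -0.05 without replicate 6. Canx was at 603 to 747 CPM, with -0.06 (interval -0.23 to 0.12), and Calr at 779 to 921 CPM, with -0.06 (interval -0.27 to 0.15). Syvn1 was at 76.7 to 121 CPM, with 0.06 (interval -0.14 to 0.27), and Selenos at 54.6 to 80.4 CPM, with 0.07 (interval -0.13 to 0.27). A p that misses the threshold does not show that the groups were alike, and for Hspa5 the interval reaches a 1.38-fold difference.

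Other members of the 35 follow. Derl3, a derlin of secretory cells, was at 9.91 to 16.3 CPM, median 13, in ieIRKO-STAM-INS against 6.59 to 13.9 CPM, median 7.69, in Control-STAM-INS, a log2 fold change of 0.60 ± 0.26 (unadjusted p = 0.0315, adjusted p = 0.389), and was the 1 gene at an unadjusted p under 0.05. Xbp1 was at 206 to 382 CPM, median 227, with 2 libraries above all Control-STAM-INS libraries. Its log2 fold change was 0.29 ± 0.14 (interval 0.02 to 0.56, unadjusted p = 0.0506, adjusted p = 0.444). Chac1, at 0.607 to 3.72 CPM and 9 to 71 reads, had -0.90 ± 0.51 (adjusted p = 0.528). Ern1 (0.02 ± 0.10), Ern2 (-0.20 ± 0.12) and Atf4 (-0.05 ± 0.11) had adjusted p-values of 0.963, 0.577 and 0.89. Beside Derl3 and Xbp1, the 4 tested plasma cell markers were positive in the same comparison, with 0 called in edgeR or DESeq2, all 4 at an unadjusted p under 0.05, and with a summed level of 1364 to 3090 CPM against 950 to 1537 CPM, while Igha and Iglc1 were listed at 0 in all libraries. The 6 B cell markers were likewise positive, with 0 called in edgeR and 6 in DESeq2, at 25.9 to 446 CPM against 19.1 to 32.3 CPM. The part of plasma and B cells in the values of Derl3 and Xbp1 was not tested.

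Against the untreated controls, the ieIRKO-STAM-INS libraries had higher levels of chaperones, folding enzymes and degradation factors. This comparison has the 4 Control-STAM-nonINS libraries in common with the insulin comparison, so that it is no second test of it. In ieIRKO-STAM-INS, 16 of 35 genes were higher (5.74% of all tested genes were) and 2 were lower (7.59% of all tested genes were), and 14 had every library above every untreated library (3.8% of all tested genes did). The higher genes were Sdf2l1, Hspa5, Manf, Hyou1, Dnajb11, Hsp90b1, Creld2, Pdia4, Pdia6, Calr, Canx, Syvn1, Selenos, Derl2, Derl3 and Sec61a1. The log2 fold change was 1.01 ± 0.18 for Sdf2l1 (adjusted p = 0.00205), 0.79 ± 0.19 for Hspa5 (adjusted p = 0.0123), 0.82 ± 0.17 for Hyou1 (adjusted p = 0.00382), 0.69 ± 0.13 for Pdia4 (adjusted p = 0.00293) and 0.67 ± 0.12 for Selenos (adjusted p = 0.00147). Derl3, not called with insulin in the controls, was at 1.88, 5.10, 5.65 and 9.10 CPM without insulin and had 1.25 ± 0.30 here (adjusted p = 0.0124), without overlap. In the same comparison 3 of 4 tested plasma cell markers were higher (4 in DESeq2), as were 3 of 4 T cell markers (3 in DESeq2) and 2 of 6 B cell markers (6 in DESeq2), with median log2 fold changes of 1.29, 1.66 and 2.99, while 3 of 7 Paneth cell markers were lower. The part of these cells in the values of Derl3 and the chaperones was not tested. Edem1 (0.36 ± 0.12, adjusted p = 0.0503) and Dnajc3 (0.31 ± 0.10, adjusted p = 0.0565) fell just short. Of the 6 sensors and transcription factors, 0 were called in edgeR and 1 was called higher in DESeq2. Xbp1 was above the untreated libraries without overlap but was not called in edgeR (0.43 ± 0.16, adjusted p = 0.0758). Ern1 (0.10 ± 0.11), Ern2 (0.14 ± 0.14) and Atf4 (-0.28 ± 0.13) had adjusted p-values of 0.594, 0.542 and 0.149. Lower were Ppp1r15a, at 8.92 to 16.2 CPM (-0.95 ± 0.23, adjusted p = 0.0117), and Herpud1, at 72.0 to 171 CPM, median 114 (-0.79 ± 0.23, adjusted p = 0.0302). Without Control-STAM-nonINS replicate 1 neither was called, at adjusted p-values of 0.0549 and 0.126, nor was Ppp1r15a without replicate 3 (0.0513) or Herpud1 without ieIRKO-STAM-INS replicate 4, 5 or 6 (0.0517 to 0.0525). Among the higher genes, calls were lost without Control-STAM-nonINS replicate 1 for Calr, Creld2, Derl2 and Pdia6 (adjusted p 0.0551 to 0.116), without replicate 4 for Calr, Derl2 and Pdia6 (0.0558 to 0.0853), without ieIRKO-STAM-INS replicate 6 for Derl2 and Pdia6, and without replicate 3 or 5 for Pdia6 (0.0511 to 0.056). With only these 2 groups in the fit, the count of genes called fell from 18 to 11, without Control-STAM-nonINS replicate 1 it was 12, and without ieIRKO-STAM-INS replicates 2 and 3 it was 15. Calls over all tested genes fell from 2036 to 1038, 1093 and 1270 in these 3 fits.

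Among genes of the same pathways outside the 36, members of the translocation, glycosylation and transport lists were higher with insulin. Of 179 such genes in 7 lists, 171 were tested, and 14 were higher (8.19%, against 3.73% of all tested genes) and 9 lower (5.26%, against 6.76%) in the controls given insulin, with a median log2 fold change of 0.08. In translocation and signal peptide processing, 3 of 22 were higher and 0 lower, namely Spcs3, a signal peptidase subunit (0.57, adjusted p = 0.00481), Tram2 (0.37, adjusted p = 0.032) and Srpr, the receptor of the signal recognition particle (0.30, adjusted p = 0.0471). In N-glycosylation and glycan trimming, 3 of 17 were higher and 0 lower, the oligosaccharyltransferase subunits Ostc (0.44), Ddost (0.36) and Stt3b (0.23). In transport from the ER to the Golgi, 4 of 22 were higher and 0 lower, with the cargo receptor Lman2 (0.44, adjusted p = 0.006), the coat protein Sec23b (0.41), Tmed3 (0.34) and Surf4 (0.30). Of these calls, that of Stt3b was lost in 17 of 23 alternatives, that of Srpr in 13, that of Surf4 in 9, that of Sec23b in 8, those of Tram2 and Ddost in 4 each and those of Ostc and Tmed3 in 1 each. Among other folding and redox enzymes, 1 of 30 was higher, Txndc11 (0.38, adjusted p = 0.014), and 2 were lower, the sulphydryl oxidase Qsox1 (-0.51, adjusted p = 0.0104) and Cnpy4 (-0.50, adjusted p = 0.0083). None of 21 further degradation factors was called in edgeR, 4 had an unadjusted p under 0.05, and DESeq2 called 2, Edem2 and Nploc4, as higher. The share of all tested genes at that unadjusted level is not given for this comparison.

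**Figure D4:**
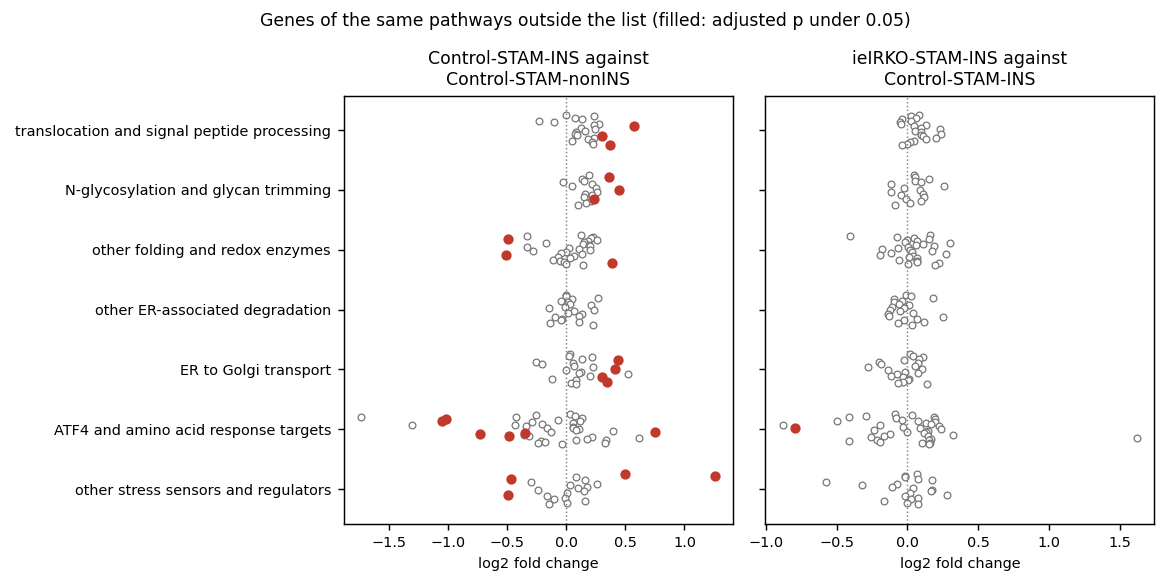
Log2 fold change of the 171 tested genes of 7 pathway lists outside the 36 genes, a point per gene, filled where the adjusted p was under 0.05. Left, Control-STAM-INS against Control-STAM-nonINS, with filled points at or above 0.23 in translocation, glycosylation and transport and mostly below 0 in the ATF4 targets. Right, ieIRKO-STAM-INS relative to Control-STAM-INS, with Nupr1 as the 1 filled point.

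On the list of ATF4 and amino acid response targets, 5 of 39 were lower with insulin in the controls (12.8%, against 6.76% of all tested genes). On the same list 1 was higher (2.56%, against 3.73%), 17 of 39 had a positive sign, and the median was -0.13. Lower were Ddit4, a stress-induced inhibitor of mTORC1 (-1.06, adjusted p = 0.0407), Cebpb, a partner of ATF4 (-1.02, adjusted p = 0.00307), and Sesn2 (-0.73, adjusted p = 0.035), and the others were Slc38a2 and Sars. Pycr1, of proline synthesis, was higher (0.75, adjusted p = 0.0492). Ddit4 was at 46.2 to 122 CPM, median 65.4, without insulin and at 28 to 51.7 CPM, median 30.5, with insulin, so that the groups overlapped, and its call was lost in 10 of 23 alternatives, as was that of Sesn2, while that of Pycr1 was lost in 13 and that of Cebpb in 0. Atf3 spanned 6.21 to 200 CPM among the 4 untreated libraries and 18.9 to 37.7 CPM with insulin, and was not called (-1.74, adjusted p = 0.0804). Among other sensors and regulators, Bhlha15, the transcription factor MIST1 of secretory cells (1.26, adjusted p = 0.00248), and Atf6b, a relative of ATF6 (0.49, adjusted p = 0.00276), were higher, and Mbtps2, a protease that cleaves ATF6 (-0.50, adjusted p = 0.00612), and Creb3l1, a related ER-bound factor (-0.47, adjusted p = 0.0332), were lower, the last of them with its call lost in 7 of 23 alternatives.

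Between the insulin-treated groups, 1 of the 171 pathway genes was called (0.585%, against 0.223% of all tested genes). Nupr1, a stress-induced nuclear protein on the ATF4 list, was at 17.1 to 25.3 CPM, median 18.8, against 31.3 to 39.2 CPM, median 35.9, without overlap, with a log2 fold change of -0.79 and an adjusted p of 0.00926, which was 0.117 without ieIRKO-STAM-INS replicates 2 and 3. Against the untreated controls, 25 of the 171 were higher (14.6%, against 5.74% of all tested genes) and 12 lower (7.02%, against 7.59%). In that comparison 7 of 22 translocation genes were higher, led by Spcs3 (0.61), Srp19 (0.47), Srprb (0.43) and Srpr (0.41), and 5 of 17 glycosylation genes, led by Ostc (0.53), Ddost (0.41), Mogs (0.31) and Tusc3 (0.31). On the transport list 4 of 22 were higher, among them Sec23b (0.51), Lman2 (0.41) and Tmed3 (0.32), and Mcfd2 was lower (-0.46). Of the ATF4 targets 9 of 39 were lower, led by Gdf15 (-2.18), Atf3 (-2.15) and Ddit4 (-0.98), and 2 were higher, Pycr1 (0.88) and Wars (0.43). Txndc11 (0.61), Prdx4 (0.41) and Txndc5 (0.34) were higher and Qsox1 (-0.71) and Cnpy4 (-0.34) lower among the folding and redox enzymes. Edem2 (0.45) was the 1 further degradation factor called, and Bhlha15 (1.24), Atf6b (0.56) and Creb3l2 (0.33) were the regulators called. Of the calls in this comparison, that of Cnpy4 was lost in 19 of 23 alternatives, that of Tusc3 in 17, that of Ddit4 in 16, that of Creb3l2 in 15, that of Prdx4 in 12, those of Atf3 and Mogs in 9 each, that of Mcfd2 in 5, those of Pycr1 and Tmed3 in 4 each, that of Srprb in 3 and that of Srp19 in 1.

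Markers of secretory and immune cells moved with some of these comparisons. Of all tested genes, 3.73% were higher and 6.76% lower with insulin in the controls, and 0.223% were called between the insulin-treated groups. With insulin in the controls, 4 of 7 Paneth cell markers were higher (Itln1, Habp2, Defa24 and Defa17), at a summed level of 3840 to 6661 CPM without and 5586 to 10180 CPM with insulin. In ieIRKO-STAM-INS the Paneth markers summed to 1944 to 3248 CPM, below every library of the other groups, and 5 of 7 (6 in DESeq2) were lower than in Control-STAM-INS. Of the T cell markers, 3 of 4 tested were higher with insulin, at 12.3 to 22.6 CPM without and 20.6 to 35.8 CPM with it, and Trac was listed at 0. The 8 goblet cell markers summed to 11480 to 13060 CPM without and 11440 to 14770 CPM with insulin. Of these 8, 0 were higher and 1, Atoh1, was lower (12.5%), which is near the share of all tested genes. The 4 tested plasma cell markers were positive, with 0 called in edgeR and 1 in DESeq2, at 708 to 1758 CPM without and 950 to 1537 CPM with insulin. No enterocyte, crypt, smooth muscle or B cell marker was called in this comparison in edgeR or DESeq2, and 1 of them, of smooth muscle, had an unadjusted p under 0.05. Of 10 pancreatic acinar markers, 6 were at 0 and only Cela1 was tested, and it was lower with insulin. The share of mitochondrial reads was 5.43 to 6.72% without insulin, 4.61 to 5.68% with it and 4.49 to 6.29% in ieIRKO-STAM-INS. The part of Paneth cells, enterocytes, T cells, plasma cells and mitochondrial share in the chaperone values was not tested.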

How the data were processed

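Total RNA of ileal whole wall was sequenced by the study in 16 libraries of 3 groups, 1 mouse each, assigned from the labels. With CLC Genomics Workbench and the genome build GRCm38, the authors obtained read counts per gene, and they deposited these whole numbers, unnormalized, in a table per library. How the counting treated strand and reads that match several genes is not given in the sources used here.

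The 36 genes, the pathway and marker lists and the rules were chosen with earlier results of these data known. The deposited counts were fitted with edgeR 4.0.16 in R 4.3.3 (filterByExpr, minimum count 10 and minimum total 15, TMM, robust quasi-likelihood F test, all 3 groups in a single fit), with Benjamini-Hochberg adjustment over 15267 tested genes and a threshold of 0.05. The standard error is the log2 fold change divided by the square root of F, and the 95% intervals use the normal quantile. They can therefore exclude 0 where the unadjusted p is over 0.05, as for Xbp1 between the insulin-treated groups. The procedure was tested on simulated counts. Alternatives were relative log expression and upper-quartile scaling, DESeq2 1.42.0, no filter, only the groups compared, replicate numbers as a block, each library left out in turn, and ieIRKO-STAM-INS replicates 2 and 3 left out together. Libraries of 13288018 to 22215382 counts gave every member at least 9 reads, and the intervals cover counting error and the spread between mice.

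The rule for naming covered the 14 members with the smallest p among those called in any comparison, with Hspa5, Xbp1, Atf4, Ddit3, Sdf2l1, Ern1 and Ern2, and the 4 largest called changes per pathway list, the remaining members being given more briefly. Levels per kb used merged exon lengths of GENCODE M21, which held 97.5% of the names. Promoter sequences came from RefSeq (GRCm38.p6). Figures were drawn with matplotlib 3.10.9.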

Additional observations from a re-analysis of the deposited data

Results flagged for a closer look

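In 11 of 105 combinations of a gene and a group, the highest or lowest library lay far from the others, by the gap to the nearest library as a share of the whole range, and chance would give about 5.25 at 1 in 20. Control-STAM-INS replicate 3 stood high in 4 genes: Pdia4 (155 CPM against 104 to 119 in the others, share 0.712), Creld2 (86.7 against 48.1 to 55.6, share 0.804), Derl3 (13.9 against 6.59 to 8.28, share 0.769) and Sec61b (162 against 103 to 116, share 0.779). ieIRKO-STAM-INS replicate 6 stood high in Canx (747 CPM against 603 to 630, share 0.815) and Derl2 (72.7 against 56.9 to 59.7, share 0.819). Among the untreated libraries, Herpud1 was high in replicate 1 (271 CPM against 169 to 181, share 0.879), Syvn1 in replicate 2 (79.6 against 58.8 to 61.1, share 0.891), Ern2 was low in replicate 3 (8.67 against 12 to 12.6, share 0.838) and Pdia3 low in replicate 4 (407 against 610 to 631, share 0.908). Selenos was low in Control-STAM-INS replicate 1 (52.7 CPM against 63.2 to 68.7, share 0.659). These genes share libraries, and members that move together are not independent.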

How the results depend on the processing

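The count of the 35 genes called with insulin in the controls was 18, and 15 to 20 under the other scalings, tests, filters and fits, including 15 with the replicate block. With 1 library left out it ran from 7 (without Control-STAM-nonINS replicate 1) to 19, and the cause was not tested. Against the untreated controls the count was 18, 11 with only the 2 groups compared, and 12 to 20 with 1 library left out. Between the insulin-treated groups it was 0 throughout. Calls over all tested genes also fell. With insulin in the controls they went from 1602 to 824 without Control-STAM-nonINS replicate 1. Against the untreated controls they went from 2036 to 1038 with only the 2 groups compared. Of pathway genes, 23, 1 and 37 were called in the 3 comparisons in the order of the text. DESeq2 gave 27, 3 and 45, and the replicate block 16, 0 and 17. The sign changed for Xbp1 with insulin under the replicate block (-0.014). With 1 library left out, the log2 fold change with insulin ran from -0.69 to 0.27 for Chac1 and from -0.13 to 0.32 for Asns, and, between the insulin-treated groups, from -0.0026 to 0.16 for Insr, from -0.047 to 0.25 for Hspa5 and from -0.19 to 0.032 for Sdf2l1. The cause was not tested. In all, 1112 of the 1288 values recomputed for the insulin comparison kept their direction and their side of the threshold. Upper-quartile scaling moved the share of higher genes among all called with insulin from 35.6 to 43.8%, and DESeq2 moved it from 17.6 to 55.1% between the insulin-treated groups.

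Same-numbered libraries of different groups did not pair: over 14 such pairs the correlation of their deviations was -0.0943 to 0.179, with 4 over 0.1, and 3 of 16 libraries correlated best with their own number. Low counts limit Chac1 (9 to 143 reads) and Derl3 (28 to 310 reads).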
